A study of Mus musculus with 8 samples.

Results

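A set of 9 genes of cell-cell fusion, adhesion and surface recognition in the macrophage and osteoclast lineage was followed across bone marrow macrophages with and without RBP-J. They were chosen by symbol, for their roles: the fusion receptors Dcstamp and Ocstamp, the integrin subunits Itgb3 and Itgav, the tetraspanins Cd9 and Cd81, the surface pair Cd47 and Sirpa, and the metalloprotease Adam8. All 9 members were found among the 24421 genes of the deposited expression table. The cells were mouse bone marrow-derived macrophages, grown from marrow precursors, of the wild type (WT) or of the Rbpj f/f;LysMCre genotype, called the knockout here. In the knockout the floxed Rbpj gene is removed by Cre made from the LysM locus, which is active in myeloid cells, so the deletion covers the lineage and not 1 cell type. Poly-A RNA was sequenced at day 0, before TNF, and following 2 days in TNF at 40 ng/ml, giving 4 groups of 2 libraries each. Untreated cells were not sampled at day 2 among these groups, so TNF and the days in culture cannot be told apart. Whether the controls carried floxed alleles or Cre, the age of the mice and any pooling of animals are not stated in the labels.

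Osteoclasts are the bone-resorbing cells of the skeleton and form when macrophage-lineage precursors fuse into large cells with several nuclei. DC-STAMP and OC-STAMP are multi-pass membrane proteins needed for that fusion, while CD9 and CD81 organise membrane domains and CD47 and SIRP alpha recognise each other on neighbouring cells. The αvβ3 integrin, built from the products of Itgav and Itgb3, is the main adhesion receptor of mature osteoclasts and signals through the kinase Src. RBP-J is the DNA-binding protein through which Notch receptors act, and it is known as a brake on TNF-driven osteoclast formation.

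The libraries held 9855859 to 35653203 reads in genes, and replicate 1 of the knockout with TNF was the shallowest. Rbpj stood at 178 to 226 CPM (the share of a library's gene reads, scaled to the same total in each) in the 4 wild type libraries and at 21.4 to 38.9 CPM in the 4 knockout libraries. All 8 macrophage markers checked were present in every group, with a summed level of 4905 to 9185 CPM per library. Single markers did not keep 1 level. With TNF, Fcgr1 went from 149 and 331 to 12.5 and 43.2 CPM in the wild type. In the knockout it went from 167 and 440 to 5.17 and 5.96 CPM, and Adgre1 from 810 and 2939 to 408 and 397 CPM. Csf1r was higher with TNF in each replicate of both genotypes. Summed over 7 osteoclast markers, which include Acp5, Ctsk and Mmp9, the level was 202 to 343 CPM at day 0. With TNF the sum was 6373 and 4583 CPM in the wild type and 16770 and 40118 CPM in the knockout. Mmp9 made up most of the wild type sum with TNF, at 4718 and 2777 CPM. Not every marker rose there, as Tnfrsf11a went from 89.1 and 214 CPM at day 0 to 99.7 and 68.2 CPM. In such bulk samples, more osteoclast-like cells and more RNA of these genes per cell cannot be told apart. Differences below are log2 differences of CPM + 0.5, given with the standard error of the limma fit, and an adjusted p under 0.05 over all 12194 genes tested was the threshold. Because replicates of the same number moved together, values with the replicate number as a block stand beside the values without it where they change a call of a member or the count of a list. The labels do not say whether a group's libraries are from different animals, and a p-value here measures no more than the spread among these libraries.

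In wild type cells with TNF, the fusion receptors Dcstamp and Ocstamp rose by 4.62 and 4.48 on the log2 scale, and no other member passed the test. In the knockout with TNF, both rose by more, 7.53 and 7.30, although the difference between these responses did not pass. With the replicate block Itgb3 also rose in the knockout, by 4.54, while Cd81 and Adam8 fell by 1.80 and 2.27. Without the block, 2 of the 9 members passed in wild type cells, both higher (1.18% of all genes passed, 0.812% higher and 0.369% lower), and 2 passed in the knockout, both higher (5.1% of all genes, 3.09% higher and 2.01% lower). With the block the counts were again 2 higher in wild type cells (10.3% of all genes passed, 5.54% higher and 4.71% lower) and 3 higher and 2 lower in the knockout (25.9% of all genes, 12.2% higher and 13.7% lower). Of the other tools, DESeq2 called 4 members in the knockout (13.9% of all genes) and edgeR with the block 5 (25.2%).

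Between the genotypes at day 0, limma called 0 of the 9 members (0% of all genes passed, and 0.0082% with the block, where again 0 members did). The count at an unadjusted p under 0.05 was 2 there (1.34% of all genes), and edgeR (0% of all genes) and DESeq2 (0.197%) also called 0 members. After TNF, limma without the block called 0 members (0.0082% of all genes passed), with 4 at an unadjusted p under 0.05 (11.3% of all genes), and edgeR called 0 members (0% of all genes). With the block 4 members were higher in the knockout than in the wild type, namely Dcstamp, Ocstamp, Itgb3 and Itgav (9.28% of all genes passed, 5.53% higher and 3.75% lower). DESeq2 also called 4 (4.86% of all genes), as did edgeR with the block (6.65%). All 4 blocked calls were lost when replicate 2 of wild type with TNF was left out. That refit leaves 1 library in the group, and blocked calls were lost over all genes too, so the loss is not particular to these members. Their differences stayed positive there, the smallest being 1.39 for Itgav. The difference between the genotypes' TNF responses was called for 0 members by limma with or without the block and by edgeR and DESeq2 (0% of all genes with limma and edgeR, 0.64% with DESeq2), with 3 members at an unadjusted p under 0.05 (5.65% of all genes).

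**Figure D1:**
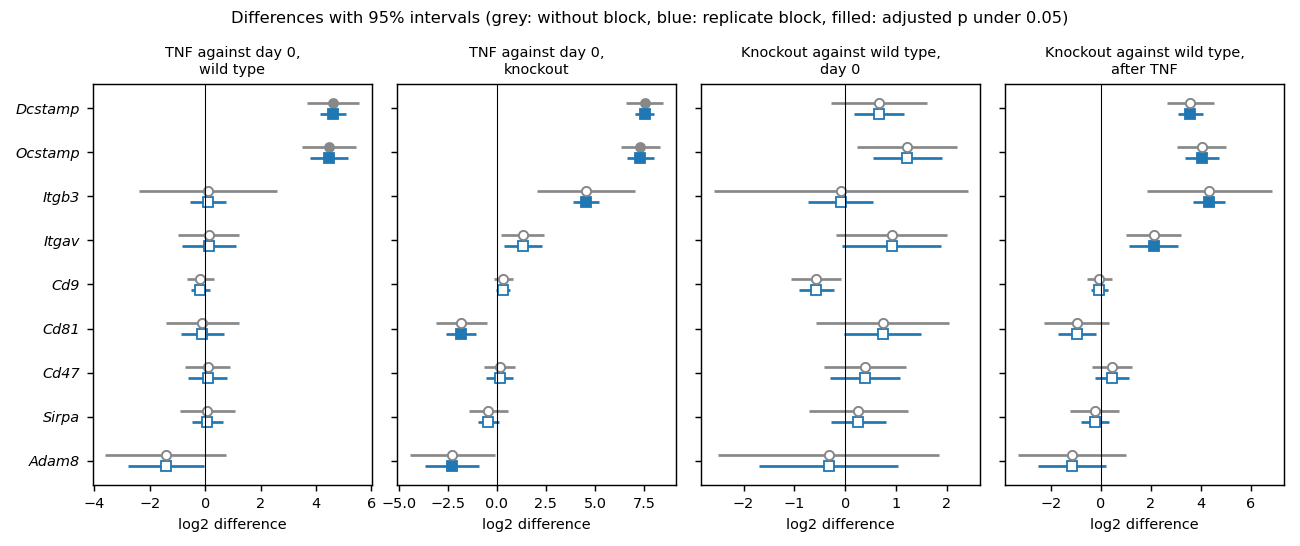
Log2 difference of each gene on the x axis, with 95% intervals, in 4 comparisons. Grey circles are from limma without the block, blue squares from limma with the block, and filled symbols have an adjusted p under 0.05. Dcstamp and Ocstamp are filled in both fits for TNF in each genotype, and the 4 symbols filled for the knockout against the wild type after TNF are filled with the block only.

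RefSeq promoter windows of assembly GRCm38.p6, from 250 bases before to 50 bases after a gene's start, were matched for 5 of the 9 members, namely Itgav, Cd9, Cd81, Cd47 and Adam8. They were searched on both strands for TGGGAA, the core of the site that RBP-J binds, because RBP-J is the factor removed. The motif was found in the windows of Cd9, Cd81 and Adam8 and not in those of Itgav and Cd47, against 25.6% of all 32851 windows. The 250 bases before the start are printed for Adam8, Cd81 and Itgav, which passed with the block in at least 1 comparison, to show where the letters lie, and for Adam8 the run goes on to the end of the motif. They read 5′ to 3′ on the gene's strand, with the motif in capitals. Adam8 lies on the minus strand of chromosome 7 (chr7:139992555-139992812), and its motif begins 2 bases past the start base. Cd81 lies on the plus strand of the same chromosome (chr7:143052500-143052749), and its motif begins 210 bases before the start. Itgav lies on the plus strand of chromosome 2 (chr2:83724147-83724396).
Adam8: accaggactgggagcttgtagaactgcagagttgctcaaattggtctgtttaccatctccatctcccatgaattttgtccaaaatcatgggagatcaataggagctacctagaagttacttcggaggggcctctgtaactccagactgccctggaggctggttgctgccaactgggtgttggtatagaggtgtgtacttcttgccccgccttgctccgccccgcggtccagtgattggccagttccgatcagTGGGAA
Cd81: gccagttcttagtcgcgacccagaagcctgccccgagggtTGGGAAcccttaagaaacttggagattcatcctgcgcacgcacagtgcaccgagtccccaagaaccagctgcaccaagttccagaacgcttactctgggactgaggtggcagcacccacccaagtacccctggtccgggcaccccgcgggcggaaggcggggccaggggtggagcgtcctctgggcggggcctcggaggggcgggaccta
Itgav: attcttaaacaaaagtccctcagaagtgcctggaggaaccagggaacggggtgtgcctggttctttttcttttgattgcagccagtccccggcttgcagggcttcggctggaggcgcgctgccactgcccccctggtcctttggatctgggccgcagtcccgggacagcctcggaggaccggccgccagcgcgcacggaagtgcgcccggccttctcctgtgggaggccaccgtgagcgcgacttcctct
Adam8 and Cd81, with TGGGAA, fell after TNF in the knockout with the block, and Cd9, also with it, passed in no comparison. Itgav, without it, was higher in the knockout after TNF with the block. Whether the motif goes with a direction of change was not tested. Motifs of the factors AP-1, NFAT, NF-kB, PU.1 and MITF were searched too. That of PU.1 was found for Itgav (28.3% of all windows), that of NFAT for Cd9 (61.3%), and the others for none of these members. A match of letters is a description of the window, not of binding, which was not measured in these data.

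Dcstamp (ENSMUSG00000022303.9, GRCm38 chromosome 15, 39745930 to 39760938, protein coding) encodes the receptor-like protein of the fusing cell surface. Its level was 0.838 and 1.26 CPM in day 0 wild type, then 32.7 and 42.3 CPM with TNF. Knockout cells had it at 1.61 and 2.31 CPM at day 0, then 337 and 602 CPM with TNF. The 4 groups did not overlap, and their order was wild type day 0, knockout day 0, wild type with TNF, knockout with TNF. TNF raised Dcstamp by 4.62 ± 0.40 in wild type cells (limma adjusted p = 0.0138) and by 7.53 ± 0.40 in the knockout (adjusted p = 0.00171). Both replicates gave nearly the same response, with 4.63 and 4.60 in wild type cells and 7.32 and 7.75 in the knockout. The wild type call was lost without wild type day 0 replicate 1 or 2 or wild type TNF replicate 2 (adjusted p = 0.134, 0.131 and 0.0994), and with the block it passed in all 8 refits that left out 1 library. After TNF, Dcstamp was higher in the knockout by 3.58, with an SE of 0.20 and an adjusted p of 0.00339 with the block in limma, and an adjusted p of 0.0872 without it. At day 0 the knockout exceeded the wild type by 0.66 ± 0.40, which did not pass (limma adjusted p = 1, and 0.640 with the block). These day 0 levels rest on 23 and 34 reads in wild type and 45 and 52 reads in the knockout.

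Ocstamp (ENSMUSG00000027670.4, chromosome 2, 165393760 to 165400405, minus strand, protein coding) is the second fusion protein, a structural relative of DC-STAMP. Its level was 0.547 and 0.334 CPM in day 0 wild type, then 28.6 and 14.4 CPM with TNF. Knockout cells had it at 1.97 and 1.42 CPM at day 0, then 331 and 355 CPM with TNF. The groups followed the same order as for Dcstamp and did not overlap. TNF raised Ocstamp by 4.48 ± 0.41 in wild type cells (limma adjusted p = 0.0151), a call lost without wild type day 0 replicate 1 or 2 or wild type TNF replicate 2 (adjusted p = 0.134, 0.151 and 0.0764). In the knockout it rose by 7.30 ± 0.41 (limma adjusted p = 0.00171), and the knockout calls of Ocstamp and Dcstamp passed in all 8 refits that left out 1 library. After TNF the knockout exceeded the wild type by 4.04, with an SE of 0.28 and an adjusted p of 0.00669 with the block in limma, and 0.0735 without it. That blocked call was also lost without knockout TNF replicate 2, where the difference was 3.72 and blocked calls over all genes fell too. At day 0 the knockout level was higher in both replicates, by 1.22 ± 0.41, and did not pass (limma adjusted p = 1, and 0.428 with the block). The count fits gave a larger day 0 difference, 1.93 in edgeR and 1.94 in DESeq2. It passed in neither (DESeq2 adjusted p = 0.0698). These day 0 values rest on 15 and 9 reads in wild type and 55 and 32 in the knockout, and the + 0.5 on the log2 scale understates differences at that level.

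The TNF responses of both fusion genes were larger in the knockout than in the wild type within each replicate, but the difference of the responses did not pass. For Dcstamp it was 2.92 ± 0.56 (limma adjusted p = 0.641, and 0.0593 with the block), and for Ocstamp it was 2.82 ± 0.58 (adjusted p = 0.641, and 0.104 with the block). With the block and without knockout TNF replicate 1, the shallowest library, they passed for Dcstamp, Ocstamp and Itgb3 (adjusted p = 0.0261, 0.0366 and 0.0214). With all libraries, the count fits gave Ocstamp a smaller difference of the responses than limma, 2.08 in edgeR and 2.06 in DESeq2. Its rise in wild type cells was larger in these fits, at 5.67 and 5.69. For Dcstamp the difference of the responses was 2.73 in edgeR and 2.71 in DESeq2. Within a library the log2 ratio of Ocstamp to Dcstamp stayed between -1.52 and 0.23, was lower in replicate 2 than in replicate 1 of every group, and overlapped between all groups.

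**Figure D2:**
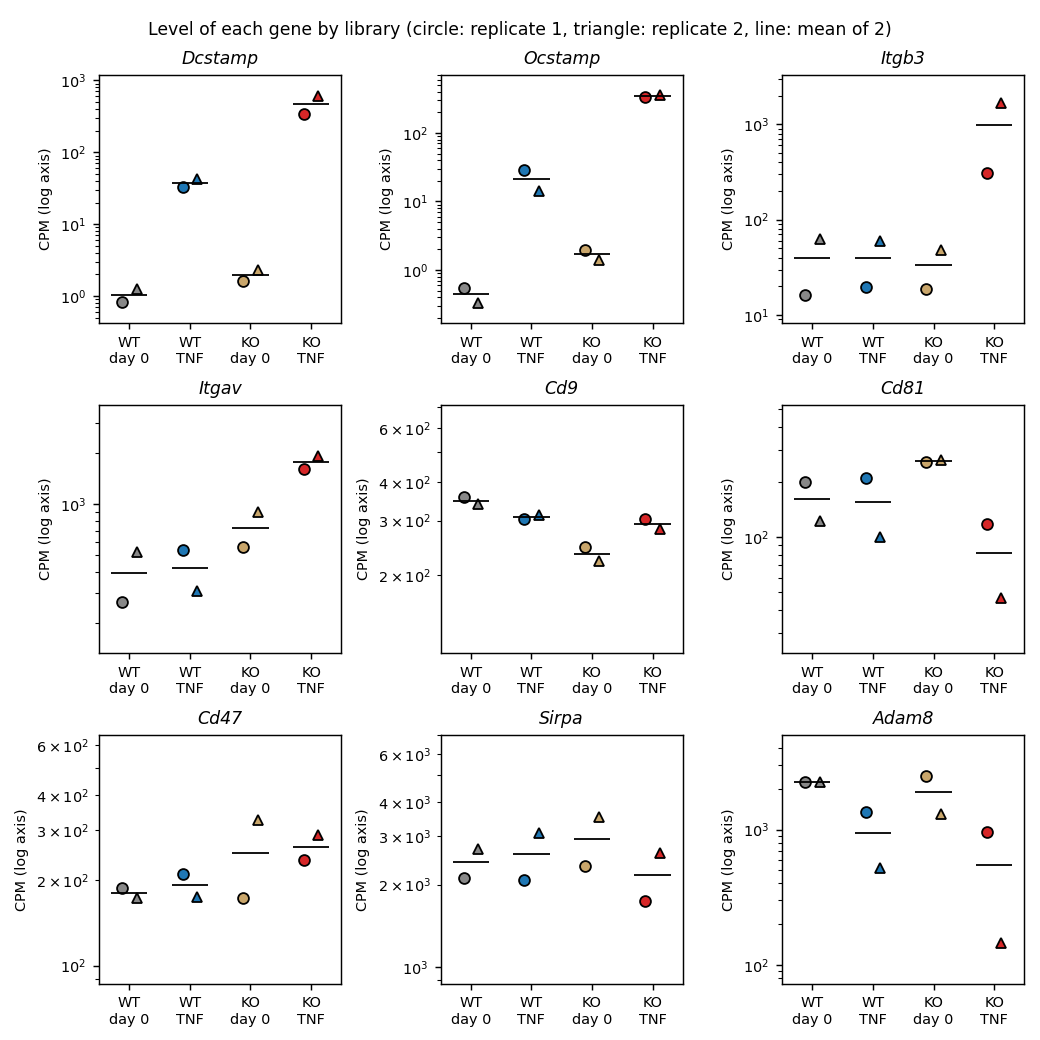
Level of each gene in CPM on a log axis, for wild type (WT) and knockout (KO) at day 0 and with TNF. Circles are replicate 1, triangles replicate 2, and lines the mean of both. Dcstamp and Ocstamp step up in wild type with TNF and further in the knockout with TNF, whereas Itgb3 and Itgav stand out in the knockout with TNF.

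Itgb3 (ENSMUSG00000020689.4, chromosome 11, 104608000 to 104670476, protein coding) encodes the β3 chain of the osteoclast integrin. It stood at 16.4 and 62.8 CPM in day 0 wild type, 19.8 and 60.3 CPM in wild type with TNF and 18.9 and 48.0 CPM in the knockout at day 0. In the knockout with TNF it stood at 307 and 1662 CPM, above all 6 libraries of the other groups. Those 3 other groups overlapped, and replicate 2 was above replicate 1 in each of the 4 groups, by 1.32 to 2.44 on the log2 scale. In the knockout TNF raised Itgb3 with the block, by 4.54 with an SE of 0.27 (limma adjusted p = 5.68e-04), a call that held in all 8 refits that left out 1 library. Without the block the SE was 1.04 and the adjusted p 0.0613 in limma, which did not pass. The response was 3.98 in replicate 1 and 5.10 in replicate 2 of the knockout, against 0.26 and -0.06 in the wild type. The wild type difference of 0.10 had a 95% interval of -0.54 to 0.74 with the block and -2.40 to 2.60 without it. After TNF the knockout exceeded the wild type by 4.35, which passed with the block (limma adjusted p = 0.00417) but not without (0.196). The difference of the responses was 4.44 ± 1.48 (limma adjusted p = 0.821, and 0.0537 with the block), so it did not pass.

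Itgav (ENSMUSG00000027087.11, chromosome 2, 83724397 to 83806916, protein coding) encodes the αv chain, which pairs with β3 and also with other β chains. Its level was 266 and 528 CPM in day 0 wild type, then 537 and 311 CPM with TNF, so these groups overlapped. It was 558 and 896 CPM in the knockout at day 0, then 1618 and 1920 CPM with TNF. Both knockout groups lay above all 4 wild type libraries. After TNF the knockout exceeded the wild type by 2.11, called with the block (SE 0.41, limma adjusted p = 0.0324) and not without it (0.180). Besides wild type TNF replicate 2, this blocked call was lost without knockout day 0 replicate 1 or 2 (adjusted p = 0.0551 and 0.0549) or knockout TNF replicate 1 or 2 (0.0730 and 0.169). With TNF in the knockout, the difference of 1.32 ± 0.46 missed the threshold (limma adjusted p = 0.174 without and 0.0565 with the block). It passed with the block under TMM scaling (adjusted p = 0.0394) and in edgeR with the block (0.0456). In wild type cells the replicates went in opposite directions with TNF, by 1.01 in replicate 1 and -0.76 in replicate 2. At day 0 the difference of 0.92 ± 0.46 between the genotypes did not pass (limma adjusted p = 1, and 0.839 with the block).

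The β chains that can pair with αv were set against it as log2 ratios within each library, uncorrected for length, in which library scaling has next to no part. The ratio of Itgb3 to Itgav was -3.98 and -3.06 in wild type at day 0, -4.73 and -2.36 in wild type with TNF, -4.84 and -4.21 in the knockout at day 0, and -2.40 and -0.21 in the knockout with TNF. It overlapped between the wild type groups, and the knockout with TNF overlapped wild type with TNF but neither day 0 group. The ratio of Itgb5 to Itgav ran the other way, with 0.28 and -0.65 in wild type at day 0, -2.03 and -2.01 in wild type with TNF, -0.09 and -0.29 in the knockout at day 0, and -3.69 and -4.33 in the knockout with TNF. Itgb5 encodes the β5 chain of macrophages and early precursors, and its ratio did not overlap between day 0 and TNF in either genotype. The ratio of Itgb1 to Itgav was -1.11 and -1.06 in the knockout with TNF and 0.30 to 2.03 in the other 6 libraries. Per kb of exon, Itgb5 was above Itgb3 in every group but the knockout with TNF, where the mean was 30.9 ± 5.85 CPM per kb for Itgb5 and 167 ± 162 CPM per kb for Itgb3 (SD, n = 2). With 2 libraries a group, an exact 2-sided permutation test of a ratio cannot go below p = 0.333, and none was made.

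**Figure D3:**
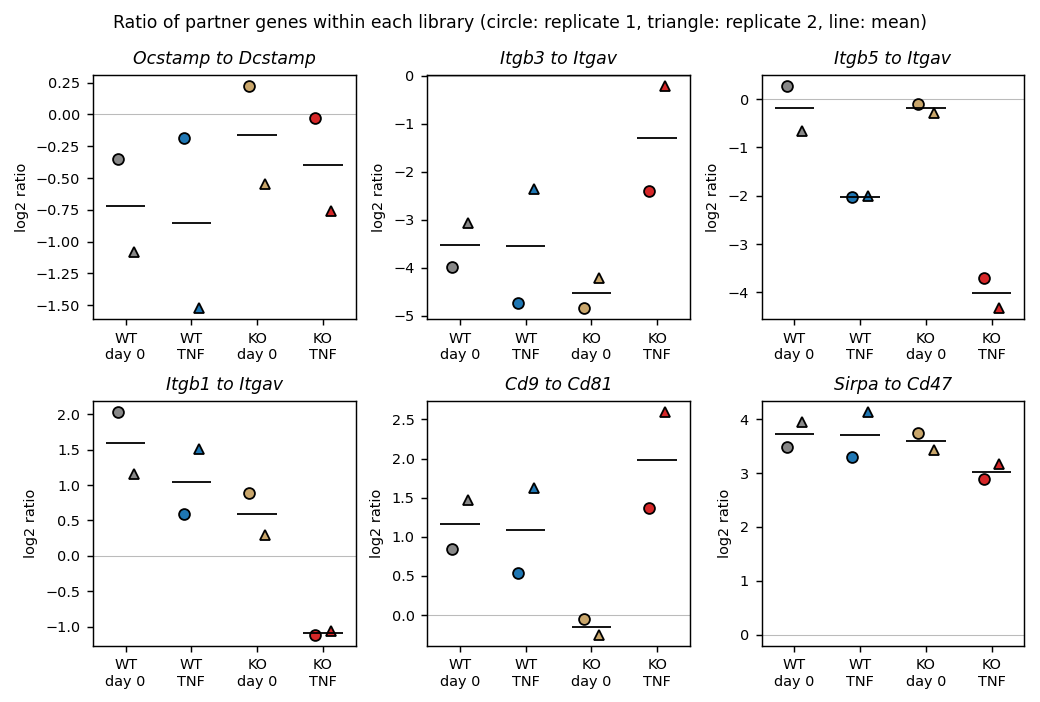
Log2 ratio of CPM + 0.5 of partner genes within each library, by group. Circles are replicate 1, triangles replicate 2, and lines the mean of both. By their means, Itgb3 to Itgav is highest in the knockout with TNF, Itgb5 to Itgav and Itgb1 to Itgav are lowest there, and Cd9 to Cd81 is below 0 only in the knockout at day 0.

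Cd9 (ENSMUSG00000030342.8, chromosome 6, 125460266 to 125494791, minus strand, protein coding) encodes a tetraspanin that gathers partner proteins at contact sites and is known from mouse mutants to limit macrophage fusion together with CD81. It had the narrowest range over the 8 libraries, with 357 and 339 CPM in day 0 wild type, 304 and 312 CPM in wild type with TNF, 247 and 222 CPM in the knockout at day 0 and 305 and 282 CPM in the knockout with TNF. The day 0 knockout libraries were the lowest of the 8, and the groups with TNF overlapped. None of its differences passed. The day 0 difference between the genotypes was -0.57 ± 0.21 (limma adjusted p = 1, and 0.489 with the block), with a 95% interval of -1.06 to -0.08. TNF differences were -0.18 (95% interval -0.67 to 0.32) in the wild type and 0.32 (-0.17 to 0.82) in the knockout.

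Cd81 (ENSMUSG00000037706.17, chromosome 7, 143052739 to 143067934, protein coding) encodes a close relative of CD9. It stood at 199 and 122 CPM in day 0 wild type, 210 and 100.5 CPM in wild type with TNF, 256 and 264 CPM in the knockout at day 0 and 118 and 46.2 CPM in the knockout with TNF. The knockout at day 0 was above all other libraries, and the knockout with TNF overlapped only wild type with TNF. In the knockout Cd81 fell with TNF by 1.80 on the log2 scale, called with the block (SE 0.32, limma adjusted p = 0.0101) and not without it (SE 0.54, adjusted p = 0.123). DESeq2 also called it (adjusted p = 0.0153). The blocked call was lost without knockout day 0 replicate 2 (adjusted p = 0.0504) or knockout TNF replicate 2 (0.0618). The wild type difference was -0.10 (95% interval -1.40 to 1.20), with opposite signs in the replicates. Between the genotypes Cd81 did not pass at day 0 (0.74 ± 0.54, limma adjusted p = 1) or after TNF (-0.97 ± 0.54, adjusted p = 0.628 without and 0.110 with the block). The log2 ratio of Cd9 to Cd81 was 0.53 to 1.63 in the wild type libraries, -0.05 and -0.25 in the knockout at day 0 and 1.36 and 2.60 in the knockout with TNF. The knockout at day 0 lay below every other library, and the knockout with TNF overlapped the wild type.

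Platelets and megakaryocytes also express Itgb3 and Cd9, and their markers were followed for that reason. Summed over all 11 markers, the level was 290 and 407 CPM in day 0 wild type, 174 and 107 CPM in wild type with TNF, 401 and 339 CPM in the knockout at day 0, and 164 and 45.3 CPM in the knockout with TNF. The list was lower after TNF in each replicate. Pf4 made up most of this sum, with 266 and 279 CPM in day 0 wild type and 157 and 30.7 CPM in the knockout with TNF. Itga2b, whose product pairs with β3 in platelets, was at 3.94 to 18.4 CPM at day 0 and at 0.982 to 6.95 CPM with TNF. Itga2b and Ppbp were higher in replicate 2 of every group, as Itgb3 was. Pf4 was higher in replicate 2 only in day 0 wild type, and Treml1 was lower in replicate 2 of every group. The 10 stromal markers summed to 125 to 182 CPM in replicate 1 and 11.0 to 60.6 CPM in replicate 2. This sum moved with the replicate number, as Itgb3 did in the other direction, and Col1a1 and Col1a2 made up most of it in replicate 1. Runx2, of the same list, was higher in replicate 2 of wild type with TNF (4.04 and 29.2 CPM). It was also higher in replicate 2 of the knockout at day 0 (7.90 and 10.4 CPM) and with TNF (4.06 and 7.86 CPM). Neutrophil markers (8 of 9 in the table) summed to 145 and 836 CPM in day 0 wild type, 60.8 and 139 CPM in wild type with TNF, 187 and 1006 CPM in the knockout at day 0 and 33.8 and 50.2 CPM in the knockout with TNF. Their sum was lower with TNF in each replicate and higher in replicate 2 of every group, as Itgb3 was. Single markers differed from the sum. In replicate 1, S100a8 rose with TNF from 13.8 to 48.2 CPM in the wild type and from 17.8 to 21.4 CPM in the knockout. Elane, Mpo and Prtn3 were lower in replicate 2 of both groups with TNF. The sum of the 4 endothelial markers, at 3.45 to 23.1 CPM in replicate 1 and 15.2 to 128 CPM in replicate 2, showed the same 2 patterns. Kdr made up 112 CPM of the highest sum, and Cdh5 was lower in replicate 2 of wild type with TNF (1.60 and 1.06 CPM). The part of these cells in the differences of Itgb3, Cd9 and the other members was not tested.

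Cd47 (ENSMUSG00000055447.19, chromosome 16, 49800533 to 49915010, protein coding) encodes the surface protein that SIRP alpha recognises. Its level was 188 and 173 CPM in day 0 wild type, 210 and 175 CPM in wild type with TNF, 173 and 326 CPM in the knockout at day 0 and 235 and 289 CPM in the knockout with TNF. The knockout at day 0 spanned all other libraries but 0 of its differences passed in limma. With TNF the difference was 0.09 (95% interval -0.72 to 0.90) in the wild type and 0.14 (-0.67 to 0.95) in the knockout. The knockout exceeded the wild type by 0.40 ± 0.34 at day 0 and 0.45 ± 0.34 after TNF (limma adjusted p = 1 and 0.793).

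Sirpa (ENSMUSG00000037902.18, chromosome 2, 129592835 to 129632228, protein coding) encodes the inhibitory receptor of myeloid cells. It stood at 2120 and 2698 CPM in day 0 wild type, 2072 and 3083 CPM in wild type with TNF, 2332 and 3513 CPM in the knockout at day 0 and 1740 and 2596 CPM in the knockout with TNF. All 4 groups overlapped, and replicate 2 was the higher in each. No difference of Sirpa passed in limma with or without the block. With TNF in the knockout it was -0.43 ± 0.41 (95% interval -1.41 to 0.55, adjusted p = 0.671, and 0.207 with the block). The log2 ratio of Sirpa to Cd47 was 2.88 and 3.16 in the knockout with TNF and 3.30 to 4.14 in the other 6 libraries.

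Adam8 (ENSMUSG00000025473.16, chromosome 7, 139978932 to 139992562, minus strand, protein coding) encodes a membrane metalloprotease of myeloid cells that is known to favour osteoclast fusion. Its level was 2257 and 2256 CPM in day 0 wild type, then 1352 and 520 CPM with TNF. Knockout cells had it at 2497 and 1299 CPM at day 0, then 956 and 146 CPM with TNF. Levels with TNF were below those at day 0 in each genotype, without overlap, and the lowest library was knockout TNF replicate 2. The response was larger in replicate 2 than in replicate 1, with -2.11 against -0.74 in the wild type and -3.15 against -1.38 in the knockout. In the knockout Adam8 fell with TNF by 2.27 on the log2 scale, called with the block (SE 0.57, limma adjusted p = 0.0312) and not without it (SE 0.91, adjusted p = 0.234). DESeq2 (adjusted p = 0.127) and edgeR with the block (0.0512) did not make it. It was also lost without wild type TNF replicate 1 or 2 (adjusted p = 0.0582 and 0.0583), knockout day 0 replicate 1 or 2 (0.0972 and 0.178) or knockout TNF replicate 2 (0.137). In the wild type the difference of -1.43 ± 0.91 did not pass (limma adjusted p = 0.670, and 0.159 with the block). Between the genotypes the differences were -0.32 at day 0 and -1.17 after TNF, and neither passed (limma adjusted p = 1 and 0.809).

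In each comparison the median of the 9 members was above that of all genes. Such a median is the value of 1 gene, the comparisons share libraries, and the gap was not tested. The median log2 difference was 0.09 against -0.12 for all genes with TNF in the wild type and 0.32 against -0.10 in the knockout. Between the genotypes it was 0.40 against 0.01 at day 0 and 0.45 against 0.02 after TNF, and for the difference of the responses it was 0.50 against 0.01. TMM scaling moved the median of all genes with TNF in the wild type from -0.12 to -0.01. Under TMM scaling with the block, 2 members passed with TNF in the wild type (9.62% of all genes) and 6 in the knockout (26.2%), and between the genotypes 0 at day 0 (0.0082%) and 4 after TNF (8.36%).

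Levels per kb of exon, from the merged exons of GENCODE M21, allow the members to be ranked within a group. Sirpa was first in all 4 groups, at 441 to 595 CPM per kb on average, and Adam8 was second in 3 groups and the sixth in the knockout with TNF. Dcstamp moved from the eighth place in the knockout at day 0 (0.735 ± 0.186 CPM per kb, SD, n = 2) to the second with TNF (176 ± 70.4). Itgb3 moved from the seventh place (5.67 ± 3.48) to the third (167 ± 162), and Itgav from the fifth (67.6 ± 22.3) to the fourth (165 ± 19.9). Dcstamp, Itgb3 and Itgav in the knockout with TNF differed from each other by less than the spread of Itgb3. Cd81 went the other way, from the fourth place (90.2 ± 2.02) to the last (28.5 ± 17.6). In wild type cells with TNF, Dcstamp (14.1 ± 2.55), Itgb3 (6.78 ± 4.85) and Ocstamp (5.88 ± 2.75) held the last 3 places. Exons of Itgav, Cd9, Cd81 and Adam8 overlap a gene on the opposite strand over 634, 218, 104 and 46 bases, and whether the authors counted by strand is not stated in the labels.

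The genes whose pattern over the 8 libraries was nearest to a member, by Euclidean distance of centred log2(CPM + 0.5), were listed for 4 members. For Dcstamp they were Car2 (distance 0.956), Myo1d (0.982), Rufy4 (1.12), Spns2 (1.34) and Mt3 (1.38). For Ocstamp they were Dcstamp (1.52), Mt3 (1.56), Myo1d (1.58), Spns2 (1.61) and Akap6 (1.70). Itgb3 had farther neighbours, with Klra17 (1.55), Dgki (1.82), Cyb561 (1.83), Fzd3 (2.01) and Nsun7 (2.03). These reached 14.8 to 80.7 CPM in knockout TNF replicate 2, against 1662 CPM for Itgb3. Adam8 had the closest, with Cdc6 (0.524), Uhrf1 (0.646), Exo1 (0.651), Kntc1 (0.686) and Rad51ap1 (0.698). Uhrf1, for example, was at 166 and 162 CPM in day 0 wild type and at 15.2 CPM in knockout TNF replicate 2. The distances describe 8 libraries that share treatment, genotype and replicate, and carry no test.

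Among 19 other genes of macrophage and osteoclast fusion, all tested, 3 rose and 0 fell with TNF in wild type cells. In the knockout 4 rose and 0 fell. Of all genes, 0.812% rose and 0.369% fell in the wild type, and 3.09% rose and 2.01% fell in the knockout. With the block 7 rose in wild type cells (of all genes, 5.54% rose and 4.71% fell). There 10 rose and 3 fell in the knockout (of all genes, 12.2% rose and 13.7% fell). The list's median in the knockout was 1.31, against -0.10 for all genes. Atp6v0d2, a subunit of the vacuolar proton pump that is also needed for fusion, stood at 13.3 and 26.0 CPM in day 0 wild type, then 225 and 334 CPM with TNF, and at 12.6 and 22.1 CPM in the knockout at day 0, then 1226 and 3402 CPM with TNF. It rose by 3.84 ± 0.58 in the wild type (limma adjusted p = 0.0416) and 6.89 ± 0.58 in the knockout (0.00513). Tm4sf19, a tetraspanin-like membrane protein, rose in the knockout by 5.49 and Cd200, the ligand of an inhibitory receptor, by 6.03. Myo10, the myosin of cell protrusions, rose by 2.90 in the wild type and 3.46 in the knockout. Pstpip2, an adaptor that restrains osteoclast formation, rose by 2.37 in wild type cells (limma adjusted p = 0.0412), and its knockout difference of 1.31 passed with the block only (adjusted p = 0.00337, and 0.0924 without it). After TNF 0 genes of this list passed between the genotypes without the block (0.0082% of all genes). With it 5 were higher in the knockout, led by Atp6v0d2 (2.90), and 1 was lower (5.53% and 3.75% of all genes).

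Among 24 other integrin subunits, 17 were tested. With TNF in the knockout, 1 rose and 2 fell without the block (3.09% and 2.01% of all genes). With the block 5 rose and 4 fell there (12.2% and 13.7% of all genes). Itgb5 was at 323 and 335 CPM in day 0 wild type, 131 and 77.1 CPM in wild type with TNF, 523 and 733 CPM in the knockout at day 0 and 124 and 95.1 CPM in the knockout with TNF. It fell by 2.50 on the log2 scale in the knockout (SE 0.33, limma adjusted p = 0.0136), while its wild type difference of -1.70 passed with the block only (adjusted p = 0.0191, and 0.0799 without it). Itga6, a laminin receptor chain, fell in the knockout by 2.78 (limma adjusted p = 0.0226). Itga2, a collagen receptor chain, rose there by 5.73 (adjusted p = 0.0240), from 0.214 and 0.311 CPM to 14.5 and 108 CPM. In wild type cells 0 subunits passed in limma without the block, and with it 3 rose and 3 fell (5.54% and 4.71% of all genes).

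Of the 20 genes that act downstream of integrins, all tested, 1 rose with TNF in wild type cells (0.812% of all genes). In the knockout 3 rose and 1 fell (3.09% and 2.01% of all genes). With the block 3 rose and 2 fell in wild type cells (5.54% and 4.71% of all genes), and 5 rose and 5 fell in the knockout (12.2% and 13.7%). Src, the kinase that the αvβ3 integrin engages, stood at 2.70 and 6.49 CPM in day 0 wild type, then 139 and 272 CPM with TNF, and at 3.43 and 17.6 CPM in the knockout at day 0, then 462 and 509 CPM with TNF. It rose by 5.37 ± 0.76 in the wild type (limma adjusted p = 0.0376) and 5.85 ± 0.76 in the knockout (0.0129), with no overlap between day 0 and TNF. Src thus rose in both genotypes, while the wild type difference of Itgb3 did not pass. The difference of the responses between the genotypes passed for neither gene (limma adjusted p = 0.0537 with the block for Itgb3 and 0.759 for Src). In the knockout the adaptor Bcar1 (4.10) and vinculin, Vcl (1.77), rose and Wdfy3 fell (-1.10), each close to the threshold without the block (adjusted p = 0.0489, 0.0331 and 0.0466). Talins, Syk, Vav1, Rac1 and kindlin-3 passed in neither genotype in either fit.

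Among 10 ligands of αvβ3 and CD47, 8 were tested, and 0 passed in wild type cells in limma with or without the block. In the knockout 1 rose without the block (3.09% of all genes rose and 2.01% fell). With the block 2 rose and 1 fell there (12.2% and 13.7% of all genes). The gene called without the block was Edil3, a secreted protein that binds αv integrins, at 3.75 and 2.93 CPM in the knockout at day 0, then 106 and 252 CPM with TNF (log2 difference 5.42 ± 0.67, limma adjusted p = 0.0110). Osteopontin, Spp1, stood at 5484 and 3732 CPM in day 0 wild type, 2702 and 2706 CPM in wild type with TNF, 2137 and 386 CPM in the knockout at day 0 and 1260 and 991 CPM in the knockout with TNF, and TNF differences passed in neither genotype. Of 27 other tetraspanins and partners, 23 were tested, and 2 rose with TNF in wild type cells and 3 in the knockout. Cd82 rose in both (2.92 and 2.41), as did Ptgfrn, a partner of CD9 and CD81 (3.20 and 4.12). Tspan7, a tetraspanin of the osteoclast cytoskeleton, rose in the knockout by 5.50. With the block 2 tetraspanins and partners rose and 1 fell in the wild type (5.54% and 4.71% of all genes). In the knockout 7 of the 23 rose and 4 fell with it (12.2% and 13.7%).

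Of 12 relatives and signalling partners of SIRP alpha, 11 were tested, and 1 fell with TNF in the knockout without the block, the inhibitory receptor Cd300a (by 2.02 on the log2 scale, limma adjusted p = 0.0331). With the block 2 fell in the knockout, and 1 rose and 1 fell in wild type cells. Ptpn6 and Ptpn11, the phosphatases recruited by SIRP alpha, passed in neither genotype in either fit. Of 11 other ADAM proteases, 8 were tested and 0 passed in limma without the block in either genotype. With the block 1 rose with TNF in wild type cells and 4 fell in the knockout, as Adam8 did, namely Adam10, Adam15, Adam19 and Adam33. The median of this list in the knockout was -0.71, against -0.10 for all genes. Adam15 followed Adam8 in showing larger falls in replicate 2, from 562 and 287 CPM at day 0 to 222 and 65.5 CPM with TNF in the knockout. Between the genotypes, 0 genes of any of the 7 lists passed at day 0 in limma with or without the block. After TNF 0 passed without the block in the 6 lists other than the fusion genes either. With it 1 integrin subunit and 1 ligand were higher in the knockout, and 3 signalling genes were higher and 2 lower. Likewise 1 tetraspanin was higher and 2 were lower, 3 ADAM proteases were lower, and 0 SIRP alpha relatives passed. Of all genes, 5.53% were higher and 3.75% lower in that comparison with the block. For TNF in the knockout, 12.2% of all genes were called higher and 13.7% lower with the block, and 3.09% and 2.01% without it. For TNF in the wild type these shares were 5.54% and 4.71% with the block, and 0.812% and 0.369% without it. No list count was tested against these shares.

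Without the block, limma made 22 calls of list genes for TNF in the 2 genotypes. In refits that left out 1 library, those of Atp6v0d2, Myo10 and Tspan7 in the knockout passed all 8 times, and the other 19 were lost at least once (adjusted p up to 0.248). With the block the 22 calls passed all 8 times except that of Wdfy3, lost without knockout day 0 replicate 2. Without that library, blocked calls for TNF in the knockout were fewer among integrin subunits, signalling genes, tetraspanins and partners and ADAM proteases. Without replicate 2 of wild type with TNF, they were fewer among integrin subunits for TNF in the wild type. The same held there for the other fusion genes in the knockout against the wild type after TNF. Each of these refits leaves 1 library in a group, and blocked calls over all genes fell too, so the losses are not particular to these lists.

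**Figure D4:**
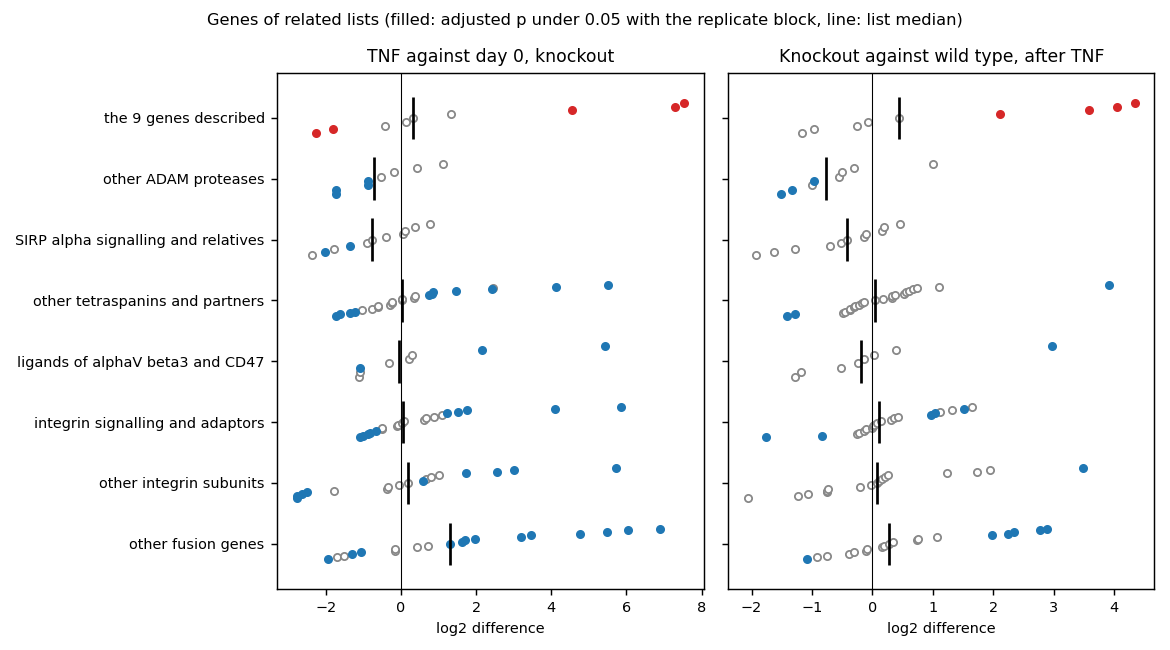
Log2 difference of each tested gene of the 7 related lists and of the 9 genes described, for TNF in the knockout (left) and for the knockout against the wild type after TNF (right). Points are genes, filled where the adjusted p with the replicate block is under 0.05, and black lines are list medians. The other fusion genes have the highest list median on the left, at 1.31, and the fusion receptors lie to the right of every list gene there.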

How the data were processed

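The deposited table holds CPM, which the authors made from reads counted in genes, and the tools listed per the submitters' processing notes are fastp, HISAT2, HTSeq and edgeR, with mm10 as the build. Per the labels' protocols, the libraries were made from poly-A RNA. Versions, settings and annotation are not given in the sources used here. In every library 100% of the CPM were whole multiples of 1 read within 0.01, so reads were recovered for count tests. The main test was limma (2-sided, eBayes with trend) on log2(CPM + 0.5) over the 12194 genes (49.9% of the table) that reached 1 CPM or more in 2 or more libraries. The fit took all 8 libraries together, so that the spread has 4 residual degrees of freedom (3 with the replicate block). All 9 members passed the filter, Ocstamp through 6 libraries and Dcstamp through 7. Benjamini-Hochberg adjustment ran over all genes in each of 5 comparisons. A ± after a log2 value is the SE of this fit, and after a level the SD of 2 libraries.

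The replicate numbers were taken to pair the libraries, from the check that follows and not from the calls. The series design names 2 experiments, no label says that the number marks the experiment, and the differences between replicates 2 and 1 correlated across genes in all 6 pairs of groups (Pearson r 0.577 to 0.805). Alternatives were other pseudocounts, filters and scalings, edgeR (quasi-likelihood) and DESeq2 on recovered reads, the block, and leaving out each library. The fits were tested on simulated reads with the same replicate shift in every group, which is what the block assumes. There the fit without the block missed many of the smaller changes. The fit with it recovered more, as that setting made likely in advance, so this is no support for the blocked calls in these data. It also called unchanged genes, most when all changed genes were raised. Members and gene lists were chosen with earlier results of these data known. The rule named all members, up to 4 called genes per list and comparison, and the 5 nearest patterns of 4 members. Other genes named from the lists (Spp1, the blocked ADAM calls, talins and the like) were chosen after their values were seen. Positions and exon lengths are from GENCODE M21 (GRCm38), and promoters from RefSeq (GRCm38.p6). The tools were limma 3.58.1, DESeq2 1.42.0 and edgeR 4.0.16 in R 4.3.3.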

Additional observations from a re-analysis of the deposited data

Results flagged for a closer look

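For 3 members, both replicates of one arm moved one way and both replicates of the other arm the opposite way. Cd9 had TNF differences of -0.23 and -0.12 in the wild type and 0.30 and 0.35 in the knockout, a difference of the responses of 0.50 that did not pass in limma (adjusted p = 1, and 0.269 with the block). Cd81 was higher in the knockout at day 0, by 0.36 and 1.11, and lower after TNF, by -0.83 and -1.11, a difference of -1.70 (limma adjusted p = 0.924, and 0.142 with the block). Sirpa was higher in the knockout at day 0, by 0.14 and 0.38, and lower after TNF, by -0.25 and -0.25, a difference of -0.51 (limma adjusted p = 1, and 0.478 with the block). The opposite directions themselves were not tested beyond these fits.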

How the results depend on the processing

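The sign of the difference stayed the same in 1201 of 1251 refits of the 45 differences (9 members, 5 comparisons), and 30 of the 45 kept 1 sign in all of theirs. No difference called in limma with or without the block on all 8 libraries reversed. Adam8 between the genotypes after TNF, called in 1 refit only (-2.14, adjusted p = 0.0422, with the block and without knockout TNF replicate 1), was 0.19 without the block and without knockout TNF replicate 2 (adjusted p = 0.950). For TNF in the wild type the count of members called was 1 when only the 4 libraries compared were fitted (28 of all 12194 genes), and 0 to 2 when 1 library was left out (0 to 84 genes). For TNF in the knockout it was 2 without the block in every such refit (43 to 509 genes). It was 5 with the replicate block, 4 in DESeq2, 5 in edgeR with the block, and 6 under TMM scaling with the block, a setting chosen after seeing the data. When 1 library was left out with the block it was 3 to 6 (894 to 3069 genes). For the knockout against the wild type after TNF it was 2 with a pseudocount of 2 (21 genes), 1 under TMM scaling (4 genes) and 4 with the replicate block, in DESeq2, in edgeR with the block and under TMM scaling with the block. It was 0 to 4 when 1 library was left out with the block (0 to 1169 genes). For the difference of the responses it was 0 to 3 in the same refits (0 to 358 genes), 3 without knockout TNF replicate 1. Over all genes, the block raised the count from 144 to 1250 for TNF in the wild type, from 622 to 3162 in the knockout and from 1 to 1131 between the genotypes after TNF, where DESeq2 called 874, 1701 and 593. DESeq2 called 24 genes between the genotypes at day 0 and 78 for the difference of the responses, where limma called 0, and edgeR called 60 for TNF in the wild type. The cause of these changes was not tested. A library left out leaves its group with 1 sample, which is then assumed to vary like the others. The block rests on numbers that no label ties to an experiment, and a p that missed the threshold does not show that levels were equal.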
